A study of Mus musculus with 4 samples.

Results

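The core genes of the circadian clock were followed in mammary basal cells, by taking Arntl (also called Bmal1), Clock, Per1, Per2, Per3, Cry1, Cry2, Nr1d1, Nr1d2 and Dbp by symbol. All 10 were found among the 17630 genes listed in each library. The study asked how sympathetic nerve signals act on mammary gland development and on the stem cells of the basal layer, the outer layer of the mammary duct. RNA-seq was made from 4 libraries of wild-type mouse cells, with 1 library per condition. The first was made from basal cells sorted from untreated mice. The second was made from basal cells sorted from mice given 6-OHDA (6-hydroxydopamine), a toxin that destroys sympathetic nerve endings and that, by the study's methods, was injected under the skin at puberty. The remaining libraries were made from colonies that basal cells formed in Matrigel with epidermal growth factor and insulin, transferrin and selenium in the medium. One of them (Basal-0) had no agonist, and the other (Basal-200) had SP, a mixture of the β2-adrenoceptor agonist salbutamol and the α1-adrenoceptor agonist phenylephrine. Basal-0 carries the same sample labels as the sorted control and is taken as the colony control from its title, which pairs it with Basal-200. The number 200 has no unit in the labels. Age, the number of mice pooled, the time of day of sampling and the time since the last change of medium are not stated in the labels.

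The clock is a feedback loop of transcription. CLOCK and ARNTL form a dimer that binds E-box sequences and activates the Per and Cry genes, whose proteins return to the nucleus and repress the dimer, while the nuclear receptors NR1D1 and NR1D2 (REV-ERB alpha and beta) repress Arntl. DBP is an output factor that the dimer switches on and that binds D-box sequences, together with its relatives TEF and HLF and in competition with NFIL3. In most tissues the transcripts of Dbp, the Nr1d genes and the Per genes swing over the day and run out of step with Arntl, and the mammary epithelium is known to express clock genes at levels that change with its stage of development. A single library per condition shows 1 moment of such a cycle, so the hour of sampling cannot be told apart from treatment or culture in any difference given here.

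Levels are FPKM values (fragments scaled to transcript length and to the number of fragments sequenced), which can be set side by side between genes. Differences between libraries are differences in log2(FPKM + 1), a scale that understates changes of low genes, and were taken where the mean of both libraries reached 1 FPKM. A gene was counted as higher or lower when its difference was past 0.3, and a size of 1 served as a stricter count. The smaller size follows a volcano plot of the study, where it was paired with an adjusted P-value that has no counterpart here. With no replicates, no difference has a test, and the spread between mice or cultures is unknown for all of them. The FPKM values summed to 508071 in the sorted control, 517504 in the 6-OHDA library, 577631 in the colony control and 588202 in the SP library. Read totals were not analysed here. From the steps between low FPKM values, 1 FPKM on 1 kilobase stood for roughly 15.4 to 18.9 fragments, depending on the library and on the fragment length assumed.

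The clearest contrast lay between sorted cells and colonies. Dbp and Per3 were close to the floor in both sorted libraries and well expressed in both colony libraries, whereas Cry1 and Per2 were several times higher in the sorted cells. Nr1d2 was also higher in the colonies. Arntl, Clock, Cry2 and Nr1d1 spanned less than 1.5-fold over the 4 libraries. For Dbp, Per3, Cry1, Per2 and Nr1d2, the differences taken with 6-OHDA or SP were smaller than those between the controls, whereas for Per1, Clock, Cry2 and Arntl a treatment difference was as large or larger.

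**Figure D1:**
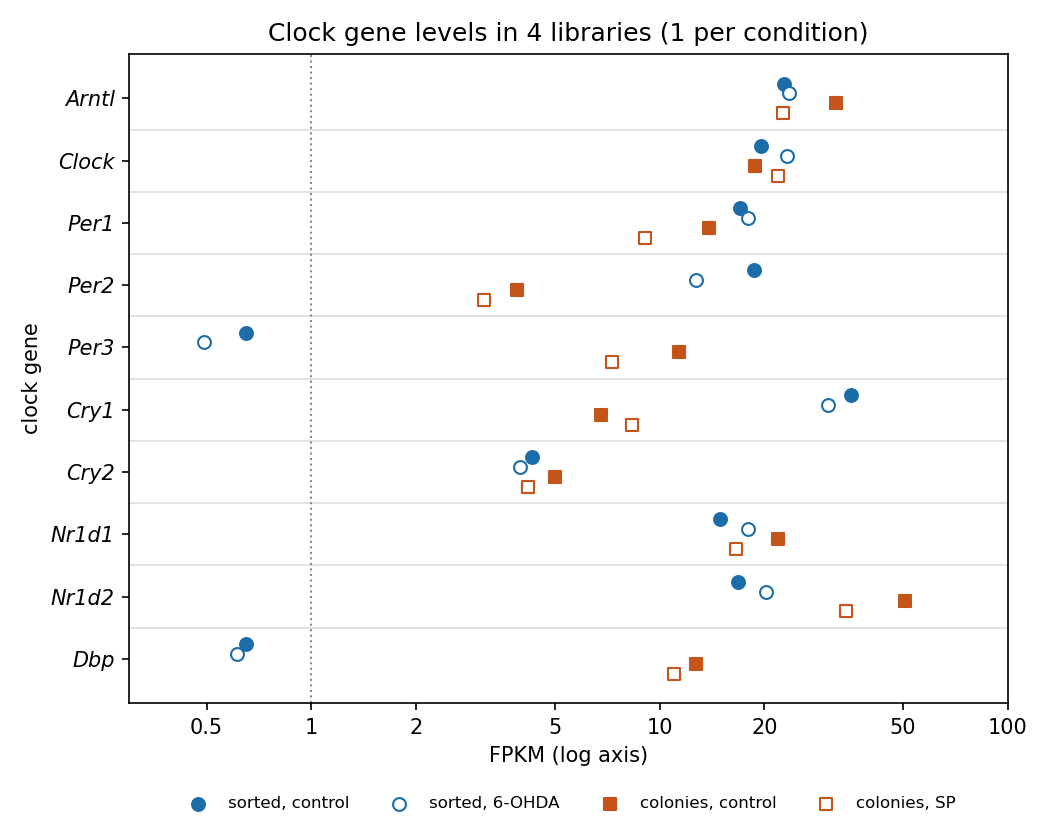
FPKM of each of the 10 clock genes on a log axis, with 1 point for each library (circles, sorted cells; squares, colonies; filled, control; open, 6-OHDA or SP); the dotted line marks 1 FPKM. Per3 and Dbp lie between 0.49 and 0.65 FPKM in the sorted cells and between 7.30 and 12.7 FPKM in the colonies, and Cry1 and Per2 are higher in the sorted cells.

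The activators came first. Arntl (NCBI Gene 11865, chr7:113178471-113314126, mm10), the member whose loss alone stops the rhythm, was at 22.7 FPKM in the sorted control, 23.6 in the 6-OHDA library, 32.2 in the colony control and 22.7 in the SP library. The colony control stood above the other libraries, which lay within 1 FPKM of each other. Its difference was 0.05 with 6-OHDA, -0.49 with SP and 0.49 between the colony and sorted controls. Clock (Gene 12753, chr5:76209868-76305603), the histone acetyltransferase of the dimer, was at 19.6, 23.3, 18.8 and 21.9 FPKM in the same order of libraries. Both treated libraries were above their own controls, by 0.24 with 6-OHDA and 0.21 with SP, and the controls differed by -0.05. The largest value of Clock was 1.24 times its smallest, the narrowest span of the 10 genes.

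Among the repressors, the Per genes took different courses. Per1 (Gene 18626, chr11:69095108-69109965), which responds rapidly to cAMP and other signals, was at 17.1 FPKM in the sorted control, 18.0 in the 6-OHDA library, 13.9 in the colony control and 9.07 in the SP library. The SP library was lowest, and both colony libraries were below both sorted libraries. Differences of Per1 were 0.07 with 6-OHDA, -0.56 with SP and -0.28 between the controls. Per2 (Gene 18627, chr1:91415977-91459351), whose loss weakens rhythms most among the Per genes, was at 18.7 FPKM in the sorted control and 12.7 in the 6-OHDA library, against 3.89 in the colony control and 3.14 in the SP library. It was therefore high in both sorted libraries and low in both colony libraries, with the control above the treated library within each pair. The sorted control held 4.79 times the Per2 level of the colony control, a difference of -2.01, while the difference was -0.52 with 6-OHDA and -0.24 with SP.

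Per3 (Gene 18628, chr4:150997018-151044707), the family member that the core loop can do without, ran the other way from Per2. It was at 0.65 FPKM in the sorted control and 0.49 in the 6-OHDA library, and at 11.4 in the colony control and 7.30 in the SP library. Both sorted libraries were under 1 FPKM, so no difference with 6-OHDA was taken, and both colony libraries were well above them. The colony control held 17.5 times the level of the sorted control, a difference of 2.91, and the SP library was below the colony control by a difference of -0.58. On its longest coding transcript in the GENCODE annotation, the low values stood for roughly 65 and 47 fragments and the colony control value for roughly 1200.

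Cry1 (Gene 12952, chr10:85131700-85185054), the stronger and later acting of the cryptochrome repressors, was at 35.5 FPKM in the sorted control, 30.5 in the 6-OHDA library, 6.77 in the colony control and 8.36 in the SP library. It was the most abundant of the 10 genes in both sorted libraries and ranked 8 and 7 in the colony control and the SP library. The sorted control held 5.25 times the level of the colony control, a difference of -2.23. Within the pairs the differences were -0.21 with 6-OHDA and 0.27 with SP. Its paralogue Cry2 (Gene 12953, chr2:92403646-92434085) was at 4.29, 3.98, 5.0 and 4.19 FPKM in the same order. Cry2 was low in every library and its differences of -0.09, -0.21 and 0.18 were all inside 0.3. The difference between the controls turned to -0.24 after scaling by the median ratio and to -0.35 after quantile normalization. The level of Cry1 was thus many times that of Cry2 in sorted cells, with a much smaller gap in both colony libraries.

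The nuclear receptors that repress Arntl differed from each other. Nr1d1 (Gene 217166, chr11:98767932-98775377) was at 14.9 FPKM in the sorted control, 18.0 in the 6-OHDA library, 21.9 in the colony control and 16.5 in the SP library. Its sorted and colony values overlapped, with differences of 0.26 with 6-OHDA, -0.39 with SP and 0.53 between the controls. Nr1d2 (Gene 353187, chr14:18204056-18239106) was at 16.8 FPKM in the sorted control and 20.3 in the 6-OHDA library, against 50.6 in the colony control and 34.3 in the SP library. It stood higher in both colony libraries and was the most abundant of the 10 genes there. The colony control held 3.02 times the level of the sorted control, a difference of 1.54, and the differences with 6-OHDA and SP were 0.26 and -0.55.

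Dbp (Gene 13170, chr7:45705100-45710203), the output factor, was at 0.65 FPKM in the sorted control and 0.61 in the 6-OHDA library, and at 12.7 in the colony control and 11 in the SP library. The sorted values were the lowest of the set together with those of Per3, and the colony values were in the middle of it. The control colonies held 19.6 times the level of the control sorted cells, a difference of 3.06, and SP differed from the colony control by -0.19. The sorted values rest on roughly 18 and 16 fragments, so their ratio to each other says little. In the GENCODE annotation Dbp shares 539 exon bases with Sphk2 on the opposite strand, and whether the counting used strand is not given in the sources used here. Sphk2 itself was at 4.66, 4.31, 10.7 and 11.2 FPKM, and fragments from the shared bases cannot be assigned to either gene from these values. Nr1d1 likewise shares 263 exon bases with Thra, which was at 14.0, 15.5, 15.2 and 12.5 FPKM.

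A ratio within a library does not depend on how libraries are scaled. The level of Dbp was 0.0286 of that of Arntl in the sorted control, 0.0259 in the 6-OHDA library, 0.396 in the colony control and 0.487 in the SP library. That of Nr1d1 was 0.656, 0.763, 0.680 and 0.730 of Arntl, so Nr1d1 and Arntl kept nearly the same proportion in sorted cells and colonies while Dbp did not. Per2 stood at 0.821, 0.541, 0.121 and 0.139 of Arntl. For Per3 and Cry1, whose ratios were added after their values were seen, the level relative to Arntl went from 0.0286 in the sorted control to 0.354 in the colony control for Per3 and from 1.56 to 0.210 for Cry1. The order of levels changed accordingly. In the sorted control Cry1, Arntl, Clock and Per2 led, and in the colony control Nr1d2, Arntl, Nr1d1 and Clock did, with Per2 last. Without replicates it cannot be said which neighbours in these orders differ.

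In the comparison of 6-OHDA with control sorted cells, 8 of the 10 genes passed the filter, and Per3 and Dbp did not. Of these 8, 0 were higher and 1 (Per2) was lower, where 15.8% of the 11749 genes compared were higher and 8.35% were lower. The median difference was 0.06 for the 8 genes and 0.06 for all genes. None of the 8 differed by more than 1, a size that 1.95% of all genes passed. The 6-OHDA library also held transcripts of salivary gland secretory proteins, with 5 of 5 listed genes past 1 and a summed level of 15342 FPKM (2.96% of the library) against 1.3 FPKM in the control, led by Bpifa2 at 7277 FPKM and followed in size of difference by Smr3a and Dcpp1. With those 5 genes left out of the scaling, the difference of Per2 was -0.50.

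In the comparison of SP with control colonies, all 10 genes passed the filter, 0 were higher and 5 were lower, namely Arntl, Per1, Per3, Nr1d1 and Nr1d2. Over the 11849 genes compared, 11.7% were higher and 19.8% were lower. The median was -0.31 for the 10 genes and -0.07 for all genes. The differences of the 5 lower genes lay between -0.58 and -0.39, and none of the 10 passed 1, a size that 3.33% of all genes passed. Clock and Cry1 were the members with a higher value in the SP library, and Cry1 passed 0.3 under some scalings, with 0.33 after scaling by the median ratio.

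In the comparison of control colonies with control sorted cells, 5 of the 10 genes were higher (Dbp, Per3, Nr1d2, Nr1d1 and Arntl) and 2 were lower (Cry1 and Per2), where 55.7% of the 12244 genes compared were higher and 26.6% were lower. Past 1, Dbp, Per3 and Nr1d2 were higher and Cry1 and Per2 lower, sizes that 30.7% and 13.2% of all genes passed. The counts of members past either threshold were thus no higher than the shares over all genes would give, apart from the 2 lower genes past 1, and the differences of Dbp, Per3, Cry1 and Per2 were the largest of the set. The median over all genes was itself 0.45, and that of the members was 0.33. After scaling by the median ratio, which brings the median of all genes to 0.00, the differences were 2.72 for Dbp, 2.57 for Per3, 1.05 for Nr1d2, -2.45 for Per2 and -2.70 for Cry1. Arntl and Nr1d1 then differed by 0.00 and 0.05, and Clock and Per1 were lower at -0.54 and -0.76, so the place of these 4 genes depends on the scaling. Cry2 then differed by -0.24 in place of 0.18, so its direction depends on the scaling too.

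Each colony library was also set against each sorted library, a comparison chosen after the values were seen. All 4 differences of Dbp lay between 2.87 and 3.09 and those of Per3 between 2.33 and 3.06, and 20% of the 12282 genes compared had all 4 differences above 1. Those of Cry1 lay between -2.23 and -1.75 and those of Per2 between -2.25 and -1.49, and 10% of genes had all 4 below -1. For Nr1d2 they ran from 0.73 to 1.54. These pairs share libraries and are not independent of each other.

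**Figure D2:**
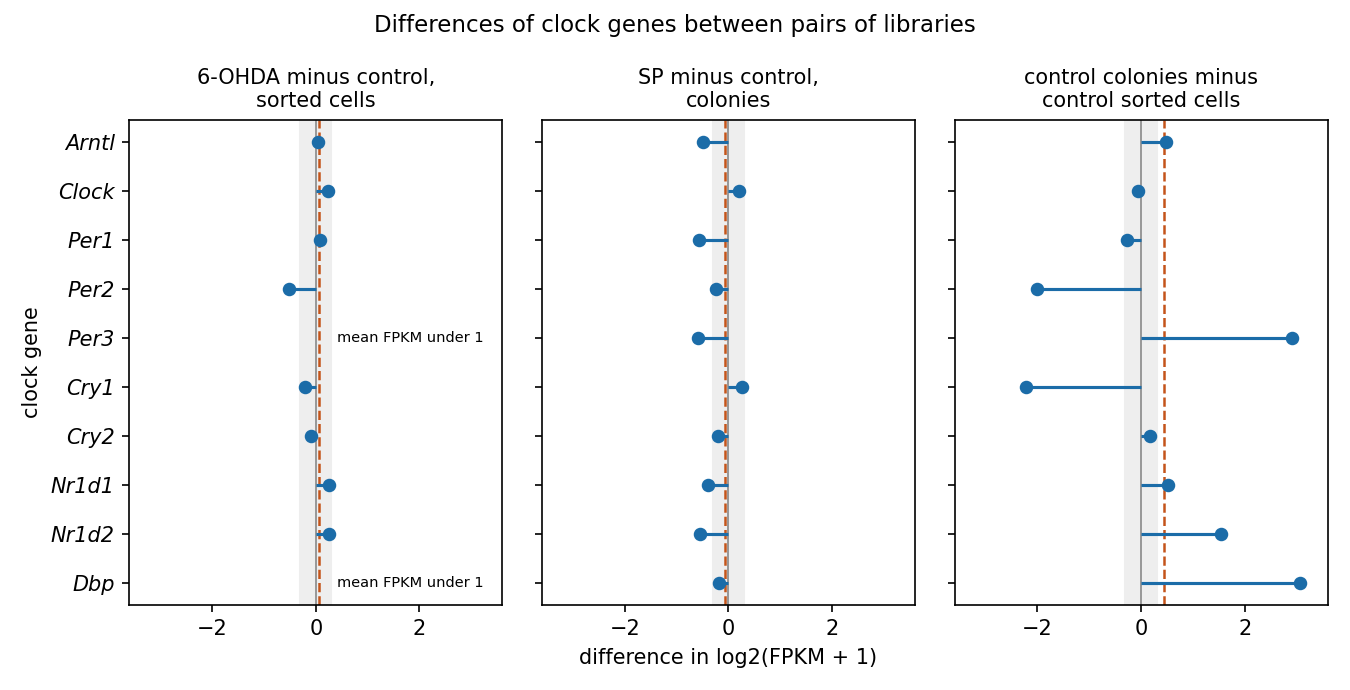
Difference in log2(FPKM + 1) of each clock gene for 6-OHDA minus control sorted cells, SP minus control colonies, and control colonies minus control sorted cells; the grey band spans -0.3 to 0.3 and the dashed line is the median of all genes compared. The differences with 6-OHDA and SP lie between -0.58 and 0.27, and those between the controls reach from -2.23 for Cry1 to 3.06 for Dbp.

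Another 26 genes tied to the clock were examined, among them paralogues, kinases, ubiquitin ligases and output enzymes. With 6-OHDA, 4 of 23 compared were higher, among them Arntl2, Gsk3b and Tipin, and 7 lower, among them Bhlhe40, Ciart, Nfil3, Tef, Csnk1d and Timeless, with a median of -0.06, beside 15.8% and 8.35% of all genes. After scaling by the median ratio, 3 were higher and 8 lower, beside 11.7% and 11.5% of all genes. Gsk3b was then no longer among the higher, and Hlf was among the lower. With SP, 1 of 22 was higher (Arntl2) and 5 were lower, among them Bhlhe41, Ciart, Tef and Btrc, with a median of -0.12, beside 11.7% and 19.8% of all genes. After scaling by the median ratio, 2 were higher and 4 lower, beside 14.8% and 14.8% of all genes, and Ciart was no longer among the lower. Between the controls, 10 of 23 (43.5%) were higher in colonies and 9 (39.1%) lower, with a median of -0.05, beside 55.7% and 26.6% of all genes. Past 1, 7 were higher and 5 lower, beside 30.7% and 13.2% of all genes. After scaling by the median ratio, 8 were higher and 12 lower, beside 40% and 39.6% of all genes.

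The D-box factors of this wider set did not share a direction. Tef, a relative of Dbp, was at 7.60 FPKM in the sorted control, 5.78 in the 6-OHDA library, 29.6 in the colony control and 21.1 in the SP library, higher in both colony libraries with a difference of 1.83 between the controls. Nfil3, which represses at D-boxes, was at 131 FPKM, 96.6, 23.3 and 22.7 in that order and differed by -2.44. Colonies were thus high in Tef and low in Nfil3. Hlf, the other activating relative of Dbp, was at 1.35, 0.92, 1.27 and 0.95 FPKM and differed by -0.05 between the controls, or by -0.34 after scaling by the median ratio.

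The E-box repressors Bhlhe40 and Bhlhe41 (DEC1 and DEC2) also ran in opposite directions. Bhlhe40 was at 256 FPKM in the sorted control, 203 in the 6-OHDA library, 54.1 in the colony control and 55.8 in the SP library, a difference of -2.22 between the controls. Bhlhe41 was at 8.38, 8.89, 27.9 and 17.1 FPKM, a difference of 1.62. Sorted cells were high in the first gene and colonies in the second. Arntl2, the paralogue of Arntl, was at 2.40, 3.65, 6.72 and 10.8 FPKM, highest in the SP library, and was the 1 gene of the 26 counted as higher with SP, by 0.61. Its difference between the controls was 1.18, or 0.78 after scaling by the median ratio.

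Some other members of the wider set differed by more than 1 between the controls, in either direction. Usp2, a deubiquitinase whose transcript is a rhythmic output in many tissues, was at 17.2 FPKM in the sorted control and 16.5 in the 6-OHDA library, against 0.56 in the colony control and 0.81 in the SP library. Its difference of -3.55 was the largest among the 36 clock genes, and it had the opposite direction to that of Dbp. Csnk1d, a kinase of the PER proteins, differed by -1.23 between the controls, while Gsk3b, another clock kinase, differed by 1.53. Btrc, which marks PER proteins for breakdown, differed by 1.25, or 0.85 after scaling by the median ratio. Tipin and Nono, partners of clock or PER complexes, differed by 1.71 and 1.31, the latter 0.80 after that scaling. Nampt, the enzyme of the clock-driven NAD salvage pathway, differed by -1.53. Fbxw11 differed by -0.17 and Csnk1e by -0.41, or by -0.66 and -0.90 after scaling by the median ratio, so that Fbxw11 changed its side of 0.3.

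Markers of the labelled cell type were present in every library. The 8 basal markers summed to 7661 FPKM in the sorted control, 7213 in the 6-OHDA library, 5737 in the colony control and 12451 in the SP library, led by Krt14, and none was at 0. Between the controls, 5 of the 8 were lower in colonies (Acta2, Myh11, Cnn1, Oxtr and Cdh3), most of all the smooth muscle genes Myh11 (-5.26) and Cnn1 (-4.04), beside 26.6% of all genes. Krt5 was higher in colonies by 0.91, where 55.7% of all genes were higher, and Krt14 and Trp63 differed by -0.12 and 0.12. With SP, 6 of 8 were higher and 1 (Oxtr) lower, beside 11.7% and 19.8% of all genes. After scaling by the median ratio, 7 of the 8 were lower in control colonies and 1 higher, beside 39.6% and 40% of all genes. The 8 luminal markers summed to 1091, 973, 1519 and 1490 FPKM, led by Krt8, with 6 of 8 higher in control colonies, where 55.7% of all genes were, and 4 after scaling by the median ratio, where 40% of all genes were. Elf5 (3.85) and Kit (1.78) differed most. The counts of higher luminal markers were not far above the shares over all genes, and their median was 0.12 after scaling by the median ratio. Colonies thus differed from sorted cells in single lineage markers, among them Myh11, Cnn1, Elf5 and Kit, at the same time as in Dbp, Per3, Cry1 and Per2. In bulk RNA, fewer cells of a type and less RNA per cell cannot be told apart.

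Most markers of other cell types were higher in the sorted libraries, where Cry1 and Per2 were high, with exceptions among the fibroblast and adipocyte markers. The 6 endothelial markers summed to 249 and 238 FPKM in the sorted control and the 6-OHDA library, led by Pecam1 at 107 and 93.0, although the study's sorting panel included its protein, CD31. They summed to 1.82 and 1.80 FPKM in the colony control and the SP library, where Tie1 was at 0 with SP, and 6 of 6 were lower in control colonies, Cdh5 (-6.14) and Pecam1 (-5.49) most. The 6 fibroblast markers summed to 175, 367, 39.1 and 12.7 FPKM with Dcn most abundant in sorted cells, 4 of 6 were higher with 6-OHDA (Col1a1, Col1a2, Col3a1 and Lum) and 4 of 6 lower in control colonies (Col1a1, Col3a1, Dcn and Lum), beside 15.8% of all genes higher with 6-OHDA and 26.6% lower in control colonies. Pdgfra was higher there, at 2.62, 3.40, 9.95 and 5.32 FPKM with a difference of 1.60 between the controls, and Col1a2 differed by -0.05. The largest fibroblast differences were those of Dcn (-5.53) and Col3a1 (-2.54) between the controls. The 7 leukocyte markers summed to 84.9, 30.2, 3.95 and 5.03 FPKM, led by Cd74 in sorted cells. Cd74 alone was at 73.0 FPKM in the sorted control and 19.5 in the 6-OHDA library, so the sums there mostly follow that gene. Ptprc, whose protein CD45 was also in the sorting panel, was at 0.77 and 0.47 FPKM in the sorted control and the 6-OHDA library, Ptprc and Cd3e were at 0 in both colony libraries, and 4 of 4 compared (Cd74, Lyz2, Cd79a and Cd68) were lower in control colonies, by -5.55 for Cd74 and -1.53 for Lyz2. Of the 6 adipocyte markers only Fabp4 passed the filter, at 210, 374, 34.4 and 1.05 FPKM, while Adipoq and Plin1 had their highest values, 1.66 and 1.23 FPKM, in the colony control. In both sorted libraries Adipoq, Plin1, Cidec, Lep and Retn were at 0.71 FPKM or less. The high Fabp4 there was thus not accompanied by the other listed adipocyte markers, and its cell source is not known. The part of these cells in the levels of Cry1 and Per2 was not tested. Dbp and Per3 had the opposite direction to most of these markers.

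Most of the listed genes that respond to signals known to act on Per1 and Per2 were lower in control colonies, where 26.6% of all genes were. Of the cAMP and CREB responsive genes, 9 of 9 compared were lower in control colonies, with a median of -2.91, and the 10 listed summed to 1924, 1667, 611 and 341 FPKM, led by Fos, with Nr4a3 (-5.18) and Nr4a2 (-4.15) furthest apart. Ppargc1a, below the filter, was at 0.11 FPKM in the sorted control and 1.13 in the colony control. With SP, 4 of 8 were lower (Nr4a1, Fos, Pde4d and Dusp1) and 1 higher (Pde4b), and with 6-OHDA 2 of 9 were lower (Pde4d and Dusp1), beside 19.8% of all genes lower with SP, 11.7% higher with SP and 8.35% lower with 6-OHDA. After scaling by the median ratio, 4 of 9 were lower with 6-OHDA, beside 11.5% of all genes. Of the glucocorticoid responsive genes, 8 of 9 were lower in control colonies, with a median of -1.12, and the sums were 4648, 4862, 1839 and 2209 FPKM, led by Mt2, with Errfi1 (-3.79) and Cebpd (-2.48) furthest apart. The other gene compared, Tsc22d3, differed by 0.12. With SP, 4 of these 9 were lower and 1 higher, with a median of 0.14, beside 19.8% and 11.7% of all genes. After scaling by the median ratio, 4 were lower and 3 higher with SP, beside 14.8% and 14.8% of all genes. With 6-OHDA, 1 of the 9 was lower and 0 higher, beside 8.35% and 15.8% of all genes. Immediate-early genes known to be induced when tissue is dissociated summed to 4804, 3999, 2064 and 1433 FPKM, led by Fos in sorted cells, and 10 of 13 were lower in control colonies, Fosb (-3.83) and Egr1 (-3.82) most. The other 3, Jun (0.31), Jund (0.72) and Btg2 (0.76), were higher, where 55.7% of all genes were. After scaling by the median ratio, 10 were lower and 0 higher, beside 39.6% and 40% of all genes. With 6-OHDA, 5 of the 13 were lower (Fosb, Junb, Egr1, Hspa1a and Hspa1b) and 0 higher, with a median of -0.23, beside 8.35% of all genes lower, alongside the lower value of Per2. In the SP comparison 9 of these 13 were lower, with a median of -0.48, beside 19.8% of all genes, alongside the lower value of Per1. Sorting and the culture cannot be told apart as sources of these differences, and their part in the values of Per1, Per2 and Cry1 was not tested. The lists share genes, since Fos is in the cAMP and the immediate-early list and Dusp1 in the cAMP and the glucocorticoid list. Their counts and sums are therefore not independent of each other.

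Other states of the cells moved with the treatments. Of 10 hypoxia-induced genes, 9 were higher with SP, beside 11.7% of all genes, with a median of 1.82, and they summed to 697 FPKM in the colony control and 2726 in the SP library, against 1237 and 1179 in the sorted control and the 6-OHDA library. With 6-OHDA, 4 of the 10 were higher and 0 lower, beside 15.8% and 8.35% of all genes. Between the controls, 3 were higher in colonies and 7 lower, beside 55.7% and 26.6% of all genes. After scaling by the median ratio, 1 was higher and 7 lower there, beside 40% and 39.6% of all genes. Ndufa4l2 (5.39) and Bnip3 (3.02) had the largest differences with SP, Vegfa differed by 1.82 with SP and by -4.02 between the controls, and Ldha was the most abundant except in the SP library, where Pgk1 was. Of 10 proliferation genes, 9 were higher with 6-OHDA, 9 with SP and 9 in control colonies, beside 15.8%, 11.7% and 55.7% of all genes. They summed to 254, 273, 366 and 528 FPKM, led by Pcna, with Top2a (3.51) and Ccnb1 (3.45) furthest apart between the controls. Of the fibroblast markers, 4 of 5 compared were lower with SP (Pdgfra, Col1a1, Col1a2 and Col3a1), with a median of -0.98 and a difference of -2.13 for Col1a2, beside 19.8% of all genes lower, and Fabp4 differed by -4.11. The part of oxygen supply, of cycling cells and of cells expressing the fibroblast markers or Fabp4 in the lower Arntl, Per1, Per3, Nr1d1 and Nr1d2 of the SP library was not tested.

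Promoter sequence was examined for the letters that clock factors bind. RefSeq windows of GRCm38.p6 (the assembly of mm10), from 250 bases before to 50 bases after a transcription start, were found for 9 of the 10 genes and not for Per2. On either strand, the E-box CACGTG was in 7.15% of all 32851 windows, the D-box TTATGTAA in 0.938%, the nuclear receptor half-site AGGTCA in 16.3% and the CRE TGACGTCA in 1.79%. The Per3 window held 2 D-boxes, as 0.0213% of all windows held 2 or more. The E-box was found in the window of Cry1 and in 1 of 2 windows of Per1, and AGGTCA in windows of Nr1d2, Arntl, Clock and Per1. No window of the 9 genes held the CRE, and none of these letters was found in the windows of Dbp, Nr1d1 or Cry2. Sites outside the windows, or with other letters than the exact ones sought, would be missed, so an absence here does not mean that a gene lacks them. The stretches around the Per3, Per1 and Cry1 matches are shown, a choice made after the values were seen. Whether these matches bear on any difference between libraries was not tested. They are given 5′ to 3′ on the strand of the gene, with the D-boxes of Per3 and the E-boxes of Per1 and Cry1 in capitals, and none overlaps an annotated exon. The Per3 stretch is chr4:151044796-151044875 (minus strand), 210 to 131 bases before the start and inside the span of Camta1. The Per1 stretch is chr11:69098749-69098828 (plus strand), 200 to 121 bases before a start that lies inside the longer Per1 transcript, and the Cry1 stretch is chr10:85185085-85185164 (minus strand), 110 to 31 bases before the start. A match describes the sequence and does not show that a factor was bound.
Per3: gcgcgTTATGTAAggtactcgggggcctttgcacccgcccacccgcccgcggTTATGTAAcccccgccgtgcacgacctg
Per1: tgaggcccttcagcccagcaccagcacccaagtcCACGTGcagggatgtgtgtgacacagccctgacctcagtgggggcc
Cry1: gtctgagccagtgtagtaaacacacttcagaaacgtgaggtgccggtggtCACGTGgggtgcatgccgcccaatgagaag

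Of the wider set, E-boxes were also in both windows of Tef, in 1 of 2 windows of Cipc and in the window of Bhlhe41, 3 genes that were higher in colonies, and in the window of Ciart, which was at 6.96, 4.16, 4.11 and 3.09 FPKM and was lower there. E-box letters were thus found beside genes with either direction of difference. The D-box was also in the window of Timeless, which differed by 0.19 between the controls, or by -0.22 after scaling by the median ratio.

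The genes most like Arntl and Dbp over the 4 libraries were sought among the 9121 genes whose mean over all libraries reached 5 FPKM, by the root-mean-square distance of log2(FPKM + 1) after each gene was centred on its own mean. The 5 nearest to Arntl were Pcdh1, Flot1, Ctdsp2, Arglu1 and Zfp672, at distances of 0.0123 to 0.0343. Pcdh1, for example, was at 10.9, 11.4, 15.4 and 10.9 FPKM, with the colony control highest as for Arntl. The 5 nearest to Dbp were Lurap1l, Frk, Mfsd9, Inhbb and Tjp3, at distances of 0.0594 to 0.0997. Frk, a tyrosine kinase of epithelial cells, was at 1.03, 1.04, 17.7 and 13.3 FPKM, and Tjp3, a tight junction protein, at 0.93, 0.81, 17.1 and 14.8 FPKM. None of the 10 is a clock gene of the lists used here, and a likeness over 4 libraries is a description of these values.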

How the data were processed

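The authors deposited FPKM values with 2 decimals for 17630 genes per library, listed by NCBI Gene number. The submitters' processing notes name Bowtie2, RSEM 1.3.1, DESeq2 1.4.5 and the build mm10, without roles. Of the numbers, 17512 matched the RefSeq table of GRCm38.p6 and 118 stayed unnamed. FPKM values are not counts, so no count test was run, and with 1 library per condition no test was made. Differences were taken as log2(FPKM + 1) at a mean FPKM of at least 1. The counting was tested on simulated data. The comparisons share control libraries, so no overlap between them is given. Fragments per FPKM were estimated from genes with a single transcript, without an interval for any gene.

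The genes and lists were chosen with earlier results of these data known. Named are all 10 genes, other clock genes past 1 in any comparison (at most 12), the most abundant and the 2 most different members of each list, and the 5 genes most like Arntl and Dbp. Hlf, Ciart, Cipc, Timeless, Fbxw11, Csnk1e, Tsc22d3, Ppargc1a, Sphk2, Thra and further list members were named after their values were seen, and some listed genes are not reported here. Alternatives were pseudocounts of 0.1 and 5, no filter, a mean FPKM of at least 5, equal sums, the median ratio, quantile normalization, and scaling without salivary genes. Python 3.11.15, numpy 2.4.6, pandas 2.3.3 and matplotlib 3.10.9 were used.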

Additional observations from a re-analysis of the deposited data

How the results depend on the processing

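Of 28 differences of clock genes, 21 kept their side of 0.3 under each alternative run, and 0 of those past 0.3 changed sign. Between the controls, Dbp ranged from 1.65 to 4.10, Per3 from 1.54 to 3.94, Nr1d2 from 1.05 to 1.59, Per2 from -2.45 to -1.41 and Cry1 from -2.70 to -1.78. With 6-OHDA, Per2 ranged from -0.57 to -0.41. The clock genes higher with SP numbered 1 (Cry1) in place of 0 with a pseudocount of 0.1, with the median ratio and with quantile normalization. Of all genes, 14.8% were higher with the median ratio and 13.8% with quantile normalization. The pseudocount of 0.1 also gave 6 clock genes lower with SP in place of 5, with Per2 added at -0.3. Between the controls, 3 clock genes were higher and 4 lower with the median ratio, beside 40% and 39.6% of all genes. With quantile normalization, 3 were higher and 5 lower, beside 43% and 36.2% of all genes. The median of the 10 genes turned from 0.33 to -0.12 and -0.08, since both methods lower the median of all genes (0.45) to 0.00 and 0.11. With 6-OHDA, a pseudocount of 5 gave 804 genes higher and 539 lower over all genes, and a mean of at least 5 gave 1066 and 639, in place of 1857 and 981. With SP, a pseudocount of 5 gave 1276 lower in place of 2351. A larger pseudocount shrinks differences of low genes, and the stricter filter compares fewer genes. The share of higher among all genes past 0.3 went from 65.4% to 50.5% with 6-OHDA, from 37.1% to 49.9% with SP and from 67.7% to 50.2% between the controls under the median ratio, and to 47.3%, 47.2% and 54.3% under quantile normalization. No paired analysis was possible because each condition has 1 library. Depth limits Dbp and Per3 in sorted cells most.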

Other observations

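Ciart, a repressor of the CLOCK and ARNTL dimer, was below its control in both treated libraries. It was at 6.96 FPKM in the sorted control and 4.16 in the 6-OHDA library, a difference of -0.63, and at 4.11 FPKM in the colony control and 3.09 in the SP library, a difference of -0.32, which was -0.26 and so within 0.3 after scaling by the median ratio and after quantile normalization. Ciart was chosen after its values were seen, and these differences have no replicate check.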
